A study of Macaca mulatta with 5 samples.

Results

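The LAMP5 and NDNF inhibitory neurons of the macaque claustrum were 234 nuclei out of 2177 inhibitory nuclei and 40005 nucleus barcodes in all. They were selected on the RNA counts themselves. A barcode counted as an inhibitory nucleus with at least 3000 unique molecular identifiers (UMIs, one per captured RNA molecule), at least 3 UMIs of GAD1 and GAD2 together, at most 1 UMI of SLC17A7 and fewer than 15 UMIs of PDE10A, RGS9 and RARB per 10000. GAD1 and GAD2 make the transmitter GABA, SLC17A7 loads glutamate into vesicles, and the last 3 genes mark striatal projection neurons. A nucleus was then kept with at least 2 UMIs of LAMP5 and NDNF together, at least 5 UMIs of ADARB2, and no UMI of VIP or SST. The other 1943 inhibitory nuclei served as the main reference.

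The nuclei came from frozen claustrum, a thin sheet of grey matter between insula and striatum, of 2 untreated male rhesus macaques (Macaca mulatta), 17 and 18 months old. All 5 libraries (2 at 17 months, 3 at 18 months) were made with the 10x Genomics 3' V3 kit. Each age was a single animal, so age and animal cannot be told apart, and p-values below measure the spread between libraries, which may be technical.

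In the cortex, ADARB2 marks interneurons that arise in the caudal ganglionic eminence, whereas LHX6 marks those from the medial eminence. LAMP5 neurons include the neurogliaform cells, compact cells with dense axons that release GABA into the surrounding tissue and act slowly on many neighbours at once. NDNF and RELN, which encode secreted proteins, mark the neurogliaform-type cells of the outermost cortical layer, and in primates a further LAMP5 type carries LHX6.

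The 5 libraries held between 6659 and 9540 barcodes and between 47512670 and 70896967 UMIs, and 197 barcode sequences occurred in at least 2 libraries. Of the LAMP5 and NDNF nuclei, 1 had a barcode that another library also held, and 0 belonged to the set in 2 libraries. They had a median of 10113 UMIs (3644 to 25362), and the other inhibitory nuclei a median of 9319. Scrublet, run within each library, placed 7 of the 234 among the likely doublets.

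The selected nuclei were 45 and 31 at 17 months and 71, 56 and 31 at 18 months. As a share of inhibitory nuclei this was 9.13% (exact 95% interval 6.74 to 12) and 9.39% (6.47 to 13.1) at 17 months. At 18 months it was 13.6% (10.8 to 16.8), 11.9% (9.11 to 15.2) and 8.61% (5.93 to 12). The animals overlapped, at 9.26% ± 0.188 (SD, n = 2) and 11.4% ± 2.52 (SD, n = 3). With 2 libraries against 3, from 1 animal each, no test was made. These intervals cover counting error only.

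The values that chose the nuclei are given as a description. LAMP5, a lysosome-associated membrane protein, had a median of 3 UMIs (0 to 12) and was detected in 219 of the 234 nuclei. NDNF had a median of 0 (0 to 6) and was detected in 62, of which 47 also had LAMP5 and 15 did not, so the set is for the most part a LAMP5 set. ADARB2, an RNA-binding protein of the ADAR family, had a median of 34 UMIs (5 to 295). The gate met no gap in the data. The 154 nuclei with only 1 UMI of LAMP5 and NDNF had 387 UMIs of KIT per 1000000 (CPM, the scale used below), 467 CPM of EYA4 and 1875 CPM of FGF13, near the 499, 711 and 2380 CPM of the 87 nuclei with 2. The 420 nuclei with 0 were lower, at 130 CPM of KIT and 126 CPM of EYA4. RELN and CXCL14 did not follow this. With 0, 1 and 2 UMIs, RELN was at 740, 965 and 646 CPM and CXCL14 at 94.1, 75.9 and 94.1 CPM. On the ADARB2 side, 7 nuclei with 3 or 4 UMIs and 26 with 0 to 2 failed on ADARB2 alone. The 26 had 654 CPM of EYA4 and 131 CPM of LHX6. Their RELN was at 84.7, CXCL14 at 11.5 and NOS1 at 446 CPM. In the 87 nuclei with 2 UMIs of LAMP5 and NDNF the same genes were at 646, 94.1 and 137 CPM. The reference of other inhibitory nuclei thus holds nuclei like the selected ones in some of these genes.

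Of 13 tested genes outside the gate that are known from neurogliaform and LAMP5 cells, 9 were higher in the LAMP5 and NDNF nuclei. RELN and CXCL14, among the 9, were not called higher against the CNR1-gated nuclei described below. EYA4, KIT, FGF13 and SV2C were higher than in the other inhibitory nuclei, and CALB2, SATB1, PDE1C and MYO5B were lower, each with no overlap between the libraries of the sets. Counts were summed per library and set, and 10869 genes were tested with edgeR's quasi-likelihood test. Calls needed a p under 0.05 after Benjamini-Hochberg adjustment and a log2 fold change of at least 1, and all genes of the gate were left out. Of the genes tested, 276 (2.54%) were called higher and 487 (4.48%) lower. Against only the other inhibitory nuclei with at least 5 UMIs of ADARB2, 143 of 9214 genes were called higher and 283 lower. The gate takes out every nucleus with VIP or SST, so genes carried by the same nuclei as VIP or SST had to be lower in part.

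EYA4 (ENSMMUG00000005745), a transcriptional coactivator, was at 674 and 752 CPM at 17 months and at 613, 685 and 577 CPM at 18 months. In the other inhibitory nuclei it was at 108 and 131 CPM, and at 103, 74.0 and 69.7 CPM. The sets did not overlap, and the log2 fold change was 2.86 (SE 0.09, adjusted p = 1.61e-23). KIT (ENSMMUG00000060342), the receptor of stem cell factor, was at 523, 529, 423, 441 and 484 CPM in the same order, against 91.0, 91.2, 105, 89.7 and 77.4 CPM. Again the sets did not overlap, with a log2 fold change of 2.45 (SE 0.09, adjusted p = 1.73e-25). FGF13 (ENSMMUG00000012484), which binds voltage-gated sodium channels, stood at 2661, 2552, 2573, 2340 and 1814 CPM against 580, 533, 578, 439 and 457 CPM. Its log2 fold change was 2.27 (SE 0.07, adjusted p = 8.79e-29).

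**Figure D1:**
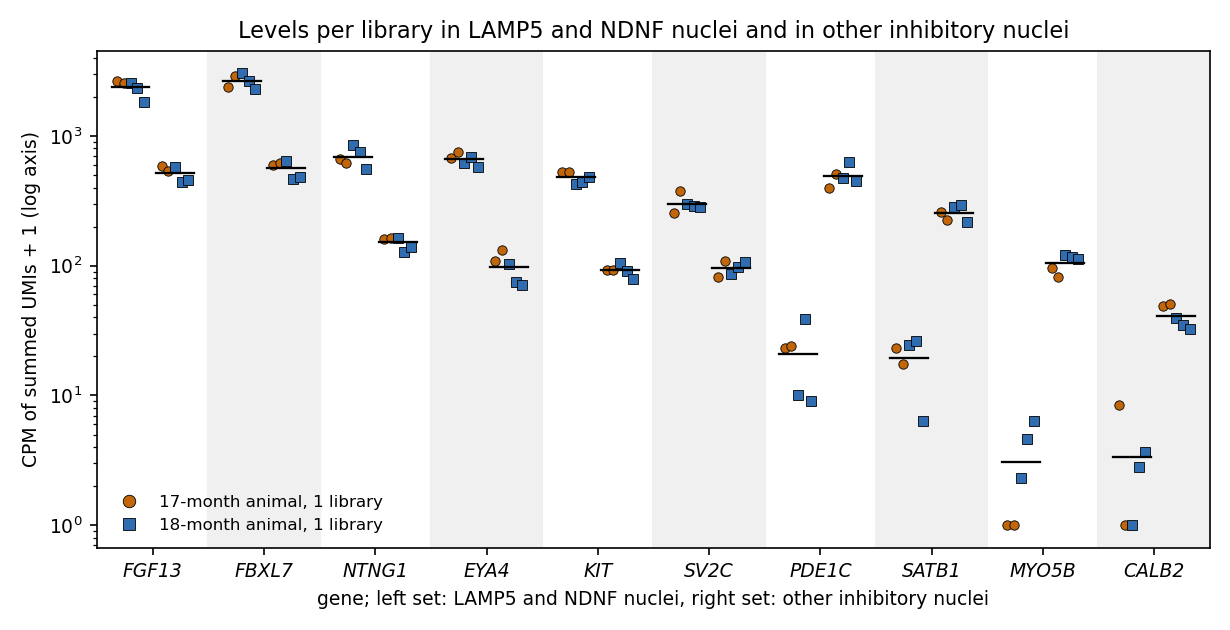
Level of 10 genes in each library, as CPM of summed UMIs plus 1 on a log axis, in the LAMP5 and NDNF nuclei (left set of points per gene) and in the other inhibitory nuclei (right set). Each point is a library and each line the mean of 5. The first 6 genes were higher in the LAMP5 and NDNF nuclei and the last 4 lower, with no overlap between sets.

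The list of neurogliaform and LAMP5-type genes had 16 genes, of which 13 passed the filter on low counts. Of these, 9 were higher and 0 lower, beside 2.54% and 4.48% of all genes, and the list's median log2 fold change was 1.46 against -0.00 over all genes. Besides EYA4, KIT and FGF13 these were SV2C, a synaptic vesicle glycoprotein (297 ± 45.2 against 95.1 ± 12 CPM, SD, n = 5), the complexin CPLX3, the chemokine CXCL14, the transcriptional inhibitor ID2, RELN and GABRD. RELN was at 1098, 578, 497, 839 and 655 CPM against 410, 292, 221, 206 and 340 CPM (log2 fold change 1.39, SE 0.18, adjusted p = 0.00263), with no overlap. Within the set, RELN was at 199 CPM in the 172 nuclei without an NDNF UMI and at 2236 CPM in the 62 with one. GABRD, the delta subunit of the extrasynaptic GABA-A receptors that neurogliaform GABA acts on, was at 74.0 ± 11.2 against 35.4 ± 4.23 CPM (log2 fold change 1.12). NOS1, which makes nitric oxide, was at 151 against 114 CPM (log2 0.57, adjusted p = 0.117). LHX6 was at 47.6 against 66.1 CPM (log2 -0.35, adjusted p = 0.117), and PAX6 at 7.72 against 5.58 CPM.

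Shares of nuclei with a UMI were compared after thinning each nucleus to 3000 UMIs. Beside them stood 194 microglia, which should lack these genes and had a median of 3718 UMIs before thinning. The microglia had at least 3000 UMIs, at least 5 of CSF1R, P2RY12 and CX3CR1 together, and none of GAD1, GAD2 or SLC17A7. Barcodes with stray RNA of these neuronal genes were thus left out, so the microglial shares may lie under the background. KIT was detected in 67.9% of the LAMP5 and NDNF nuclei (90.2% before thinning) and in 2.58% of microglia. SV2C was detected in 56.0% (79.9% before) and 3.09%, EYA4 in 66.7% (84.2%) and 1.55%, and FGF13 in 96.6% (99.1%) and 7.73%. All 4 stood far above the microglia. RELN was detected in 28.6% (37.2% before), against 20.6% of microglia. NPY, a peptide of many neurogliaform cells in rodents, was detected in 4.27% (17.1% before), against 11.3% of microglia. By library its share in the LAMP5 and NDNF nuclei ran from 1.41% to 16.1% after thinning. The microglial share need not be the background of these deeper nuclei: CALB2 was detected in 9.28% of microglia and in 0.43% of them. How much of the RELN and NPY detection is background was not tested. SNCG, PVALB and TAC3 had 0 UMIs in the 234 nuclei, which allows a share of up to 1.28% of nuclei with a UMI. After thinning, the other inhibitory nuclei had shares of 0.257%, 0.618% and 1.24%, all under that bound. The 0 thus does not set the LAMP5 and NDNF nuclei apart.

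Of the 15 called genes with the highest fold changes at 20 CPM or more, NTNG1, a membrane-bound netrin, was at 687 ± 113 against 150 ± 16.4 CPM (log2 fold change 2.27). FBXL7, an F-box protein, was at 2642 ± 318 against 563 ± 81.0 CPM (2.30). NMBR, the neuromedin B receptor (2.46), PRLR, the prolactin receptor (2.22), and PDGFD, a growth factor (2.29), were also among them. The rest, besides EYA4, KIT and FGF13, were the glypican GPC4, the collagen COL21A1, CA8, TXLNB, TPD52L1, KIRREL1 and FCRL3. FCRL3, an Fc receptor-like gene, had the highest fold change (3.10, SE 0.32) at a low level that varied between libraries, at 51.8 and 52.3 CPM at 17 months and 7.84, 16.3 and 29.4 CPM at 18 months.

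Some genes of glutamate reception were higher as well. GRIN2A, an NMDA receptor subunit, was at 3637 ± 391.6 against 946 ± 106 CPM (log2 fold change 2.01, SE 0.06). GRIN3A, another NMDA receptor subunit, had a log2 fold change of 1.56 and GRIA4, an AMPA receptor subunit, of 1.35. Of 18 AMPA, kainate and delta receptor genes tested, 1 was higher and 2 lower, and of 12 NMDA and metabotropic receptor genes 2 were higher and 1 lower. Over all genes, 2.54% were higher and 4.48% lower. Other called genes were the substance P receptor TACR1 (1.21), the potassium channel subunit KCNMB4 (1.34) and the transcription factors NFIB (1.36) and NFIX (1.29).

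Among genes lower in the LAMP5 and NDNF nuclei, several were at 0 or nearly so. KLHL14 had 0 UMIs against 498 in the other inhibitory nuclei, at least 19.5-fold lower with a floor of 3 counts over the set. POSTN, the matrix protein periostin, had 1 UMI against 1431, a ratio of levels of 168 (counting interval 30.1 to 6649). MYO5B, a myosin motor, was at 2.05 ± 2.36 against 104.5 ± 16.5 CPM (log2 fold change -5.60, SE 0.30), and PLCH1, a phospholipase C, had a log2 fold change of -4.81. PDE1C, which breaks down cyclic nucleotides, was at 20 ± 12.2 against 491 ± 87.9 CPM (-4.60, SE 0.16). CALB2, the calcium-binding protein calretinin of many VIP cells, was at 2.38 ± 3.04 against 40.3 ± 8.33 CPM (-4.13), and at -5.09 without the first 17-month library. SATB1, a transcription factor of medial eminence interneurons, was at 18.5 ± 8.11 against 255 ± 34.2 CPM (-3.66, SE 0.15). Of 52 axon guidance and cadherin genes tested, 6 were higher and 14 lower, beside 2.54% and 4.48% of all genes. Those higher included NTNG1, CDH4 and CDH13, and those lower included CDH7 (-4.02).

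Markers of other cells were measured in the same sums. Summed excitatory markers ranged from 26.7 to 69.1 CPM in the LAMP5 and NDNF nuclei and from 38.7 to 90.2 CPM in the other inhibitory nuclei. The 5 oligodendrocyte markers ranged from 281 to 546 CPM against 283 to 548 CPM, and astrocyte markers from 10.7 to 81.7 CPM against 27.9 to 67.1 CPM. These ranges overlapped. The 5 microglial markers were at 22.9 to 69.1 CPM against 23.9 to 37.2 CPM, with P2RY12 at 36.3 against 21.2 CPM (log2 0.85, adjusted p = 0.00209), and none of the 5 was at 0. Striatal interneuron markers were at 24.8 to 66.8 CPM against 406 to 584 CPM, with LHX8 and CHAT at 0 in the LAMP5 and NDNF nuclei. The part of these transcripts in the results was not tested.

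Narrower references were used to see which genes set the LAMP5 and NDNF nuclei apart from single kinds of inhibitory nuclei. They were 90 VIP-gated nuclei (at least 2 UMIs of VIP, at least 5 of ADARB2, no SST), 247 SST or PVALB-gated nuclei (at least 2 UMIs of either, at most 4 of ADARB2, no VIP), both with at most 1 UMI of LAMP5 and NDNF, and 145 CNR1-gated nuclei (at least 5 UMIs of CNR1 and of ADARB2, no VIP or SST, and no LAMP5 or NDNF). After thinning to 3000 UMIs, PVALB was detected in 1 of the 247 SST or PVALB-gated nuclei (0.405%). How many of them passed by PVALB was not counted, so values against this reference say little of PVALB cells. The comparisons share the LAMP5 and NDNF sums, so their values are set side by side only.

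Against the VIP-gated nuclei, 270 of 4881 genes (5.53%) were higher and 240 (4.92%) lower. TXLNB had 0 UMIs in the VIP-gated nuclei and was at least 21.3-fold higher. NOS1 had 372 UMIs against 1, a ratio of levels of 131 (counting interval 23.4 to 5193), and the mechanically gated channel PIEZO2 had 791 against 2, a ratio of 139 (38.5 to 1153). The synaptic ligand NXPH1, a gene of medial eminence and neurogliaform cells, was at 2141 ± 401 against 73.7 ± 89.3 CPM (log2 fold change 4.83, SE 0.61), and at 5.69 without the second 17-month library. EYA4 had a log2 fold change of 4.67 that did not pass without the first 17-month library (4.65) and stood at 7.58 without the second; 3 of the 5 VIP-gated sums had 0 UMIs of it. FGF13 had one of 5.07, and 5.86 without the second 17-month library. SCGN, the calcium-binding protein secretagogin, had 0 UMIs in the LAMP5 and NDNF nuclei and was at least 60.5-fold lower. CALB2 (-6.35), the sulfotransferase CHST15 (-5.56), DACH2 (-5.02) and SVEP1 (-4.92) followed, with CALB2 at -7.07 without the first 17-month library.

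Against the SST or PVALB-gated nuclei, 413 of 7311 genes (5.65%) were higher and 402 (5.5%) lower. KIT was at 480 ± 47.5 against 3.09 ± 1.82 CPM, a log2 fold change of 7.29 (SE 0.20, adjusted p = 4.75e-17). NMBR and the BMP antagonist CHRDL1 had 0 UMIs in those nuclei and were at least 45.1-fold and 28.5-fold higher. NTNG1 and EYA4 both had a log2 fold change of 6.05. Genes lower in the LAMP5 and NDNF nuclei included PLCH1 (-6.36), MYO5B (-6.22), SATB1 (-4.79), NPY (-2.40) and SOX6 (-2.23). LHX6 was at 47.6 ± 17.4 against 104 ± 10.1 CPM (-1.04), near the fold threshold, and did not pass without the first 17-month library (-0.92), the second (-0.997) or the second 18-month library (-0.91). NXPH1, at 2141 against 2639 CPM (-0.29), did not reach the fold threshold.

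Against the CNR1-gated nuclei, 294 of 6080 genes (4.84%) were higher and 262 (4.31%) lower. LHX6 had 123 UMIs against 0, at least 30.4-fold higher, and SV2C (log2 fold change 5.01), TOX2 (5.24) and TOX (5.01), transcription factors of the TOX family, were also higher. TOX stood at 5.88 without the second 17-month library. RELN, at 733 ± 240 against 983 ± 184 CPM, was not called (-0.46), nor was CXCL14, at 86.9 against 143 CPM (-0.72), nor PROX1, a caudal eminence transcription factor, at 80.9 against 97.8 CPM (-0.27). CALB2 (-5.07) and the metalloprotease ADAMTS9 (-5.41) were lower, with CALB2 at -6.01 without the first 17-month library.

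**Figure D2:**
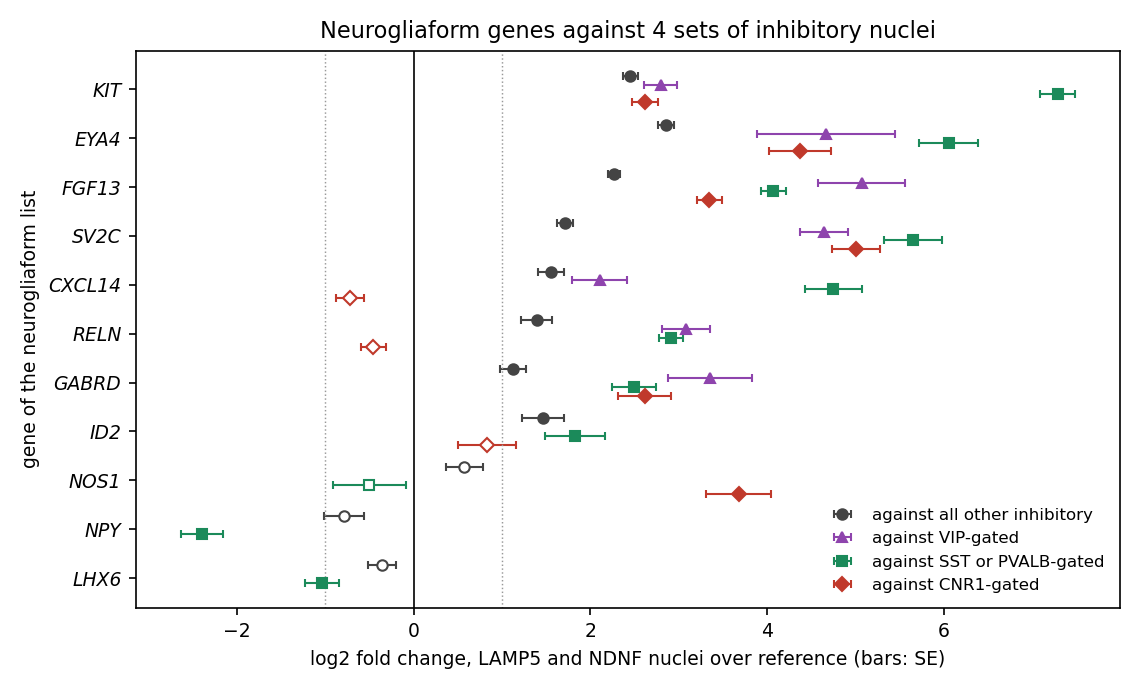
Log2 fold change (bars: SE) of 11 genes of the neurogliaform list in the LAMP5 and NDNF nuclei against 4 references. Filled symbols were called and open ones were not, dotted lines mark a log2 fold change of 1, and genes with fewer than 4 UMIs on a side are left out. KIT, EYA4, FGF13, SV2C and GABRD were called against all 4, while RELN and CXCL14 were not called against the CNR1-gated nuclei.

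Within the LAMP5 and NDNF nuclei, RELN and LHX6 were seldom found together. RELN alone was detected in 78 nuclei, LHX6 alone in 70, both in 9 and neither in 77, with median depths of 9748, 10307, 11255 and 10272 UMIs. LHX6 was detected in 10.3% of nuclei with RELN and in 47.6% of those without. It was lower beside RELN in each library, at 8% against 25% and 17.6% against 57.1% at 17 months, and at 15.8% against 57.7%, 0% of 16 against 42.5%, and 10.0% against 47.6% at 18 months. NDNF went with RELN, at 51.7% of nuclei with RELN and 11.6% of those without. LHX6 was detected in 2 of the 62 nuclei with NDNF and in 44.8% of those without, which by the gate all had at least 2 UMIs of LAMP5. SOX6, which acts with LHX6 in medial eminence interneurons, was detected in 83.5% of nuclei with LHX6 and 23.2% of those without. Nuclei of a library are no replicates, so no test was made on these shares, and a UMI can be missed in a nucleus that has the RNA: after thinning, LHX6 was detected in 14.1% of the 234 and in 0% of microglia. The same shares were 28.6% and 20.6% for RELN, 22.2% and 12.4% for SOX6, and 11.1% and 0% for NDNF. The shares of nuclei with RELN or SOX6 given here, taken before thinning, may thus include a background, which was not subtracted.

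Libraries differed in this makeup. RELN was detected in 55.6% and 54.8% of the LAMP5 and NDNF nuclei of the 17-month animal and in 26.8%, 28.6% and 32.3% of those of the 18-month animal. LHX6 was detected in 15.6% and 35.5%, and in 46.5%, 30.4% and 35.5%. The animals did not overlap for RELN, which was also detected in 20.6% of microglia after thinning, and overlapped for LHX6. High counts of RELN, at least 10 UMIs, were found in 42 nuclei, which were 20% and 19.4% of the 17-month libraries and 14.1%, 19.6% and 19.4% of the 18-month libraries, and these shares overlapped.

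**Figure D3:**
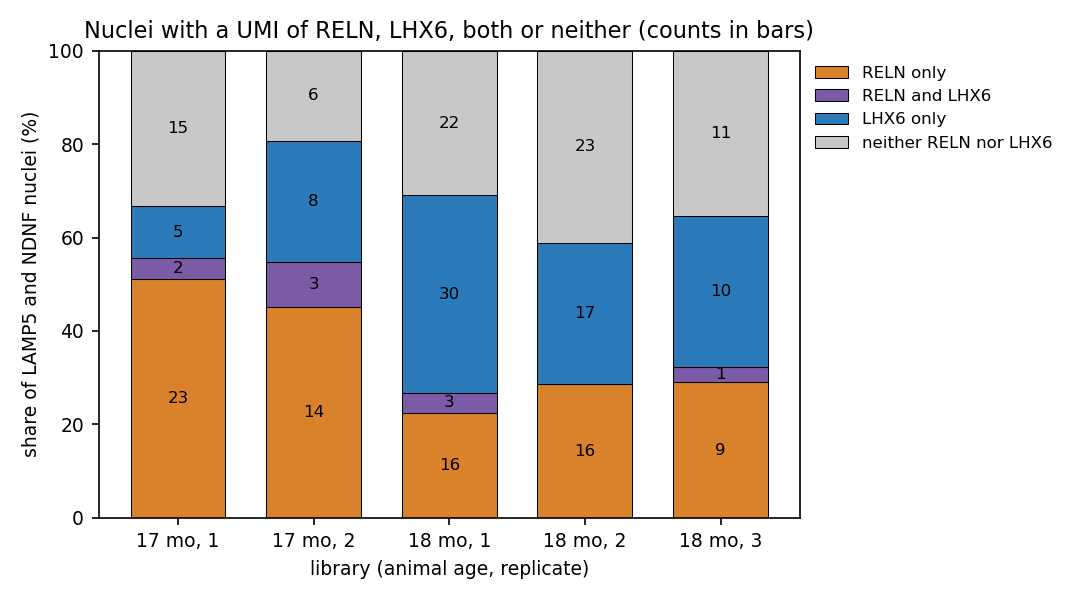
Share of the LAMP5 and NDNF nuclei of each library, in percent, with a UMI of RELN only, of RELN and LHX6, of LHX6 only, or of neither; numbers in the bars are nuclei. Nuclei with both were 0 to 3 per library, and nuclei with RELN only took a larger share in the 2 libraries of the 17-month animal.

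Nuclei with an NDNF UMI (62) were compared with those without (172) in the same 5 libraries, and 45 of 4040 genes (1.11%) were higher and 56 (1.39%) lower. By the gate, each nucleus without NDNF had at least 2 UMIs of LAMP5, while those with NDNF could have fewer. LAMP5 was at 178 CPM with NDNF and at 311 CPM without. The part of this difference in the results was not tested. RELN was at 3525 and 2013 CPM at 17 months and 1886, 2017 and 1858 CPM at 18 months with NDNF, against 138, 206, 97.6, 433 and 123 CPM without. The sets did not overlap, with a log2 fold change of 3.61 (SE 0.44, adjusted p = 0.0151). It did not pass without the second 17-month library (3.69), the first 18-month library (3.42) or the third (3.52). Both acetylcholine receptor genes tested were higher with NDNF, the muscarinic CHRM3 at 521 ± 112 against 159 ± 41.4 CPM (1.77, SE 0.18) and the nicotinic CHRNA7 at 137 ± 56.5 against 41.4 ± 16.0 CPM (1.69, SE 0.28). The cannabinoid receptor CNR1 (1.63), the chemokine CXCL14 (1.46) and the potassium channels KCNT2 (1.20) and KCNQ5 (1.09) were also higher, the last at 0.95 and not called without the first 18-month library. Genes lower with NDNF included SOX6 (-3.27), the guanine nucleotide exchange factor RASGRF2 (-2.75), the axon guidance gene SEMA5B (-2.54) and NTNG1 (-2.15). SOX6 stood at -4.00 without the second 17-month library.

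Nuclei with an LHX6 UMI (79) were compared with those without (155), and 63 of 4336 genes (1.45%) were higher and 78 (1.8%) lower. RELN was at 29.0 and 65.5 CPM and at 8.39, 0 and 16.2 CPM with LHX6, against 1318 and 854 CPM and 925, 1236 and 969 CPM without. The log2 fold change was -5.83 (SE 0.34, adjusted p = 7.83e-09), and -6.68 without the second 17-month library. CHRM3 was at 28.7 ± 15.2 against 360 ± 31.6 CPM (-3.68, SE 0.25). The sodium channel gene ASIC2 (-4.29), the transcription factor PBX3 (-3.94), CXCL14 (-2.88), the axon guidance receptor ROBO2 (-2.69) and KCNT2 (-2.61) were lower too.

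Genes higher with LHX6 included SOX6, at 236 ± 62.1 against 49.8 ± 19.2 CPM (log2 fold change 2.34, SE 0.23), and CALB1, the calcium-binding protein calbindin, at 99.1 ± 18.8 against 16.8 ± 14.5 CPM (2.54, SE 0.36). The Wnt antagonist DKK2 (2.87), MORN5 (2.60), the serotonin receptor HTR4 (2.51) and the guidance ligand SLIT2 (1.89) were also higher. ADARB2 was left out of the test and is given as a level: it was at 1889 ± 242 CPM with LHX6 and at 5777 ± 590 CPM without, in no library overlapping. KIT, SV2C, EYA4 and FGF13 were not called in either division, though EYA4 was at 492 against 745 CPM with and without LHX6 (-0.58, adjusted p = 0.000753), under the fold threshold. Both divisions are of the same 234 nuclei, and only 2 nuclei had both NDNF and LHX6, so the opposite signs of a gene in the 2 comparisons are not independent of each other.

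**Figure D4:**
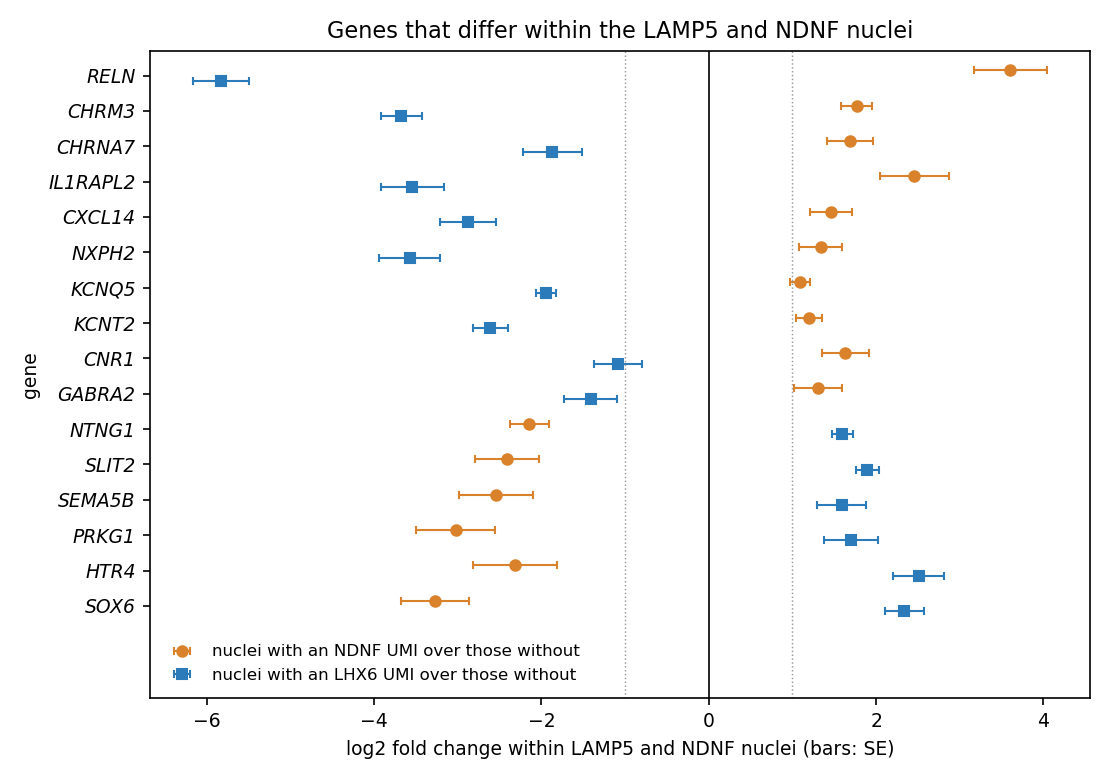
Log2 fold change (bars: SE) of 16 genes within the LAMP5 and NDNF nuclei, for nuclei with an NDNF UMI over those without (circles) and for nuclei with an LHX6 UMI over those without (squares). Dotted lines mark a log2 fold change of 1. The first 10 genes were higher with NDNF and lower with LHX6, and the last 6 the reverse; the 2 comparisons share nuclei.

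Between the animals, 14 of 6629 genes were called in the LAMP5 and NDNF nuclei at an adjusted p under 0.05, of which 6 (0.0905%) were higher and 8 (0.121%) lower in the 18-month animal. CNTNAP5 (ENSMMUG00000019739), a synaptic adhesion protein of the neurexin superfamily, was at 977 and 1016 CPM at 17 months and at 452, 490 and 481 CPM at 18 months. The animals did not overlap, with a log2 difference of -1.07 (SE 0.13, adjusted p = 5.81e-05). The adhesion protein CLSTN2 (-0.70), the growth factor TGFB2 (-1.40) and the glycosyltransferase ABO (-1.66) were lower as well, and the granule protein SCG2 (1.28), the transcription factor TRPS1 (1.15) and CCDC7 (1.76) higher. CCDC7 stood at 2.64 without the first 17-month library and was not called without the second 18-month library (1.66). CLSTN2, TGFB2, ABO, SCG2 and TRPS1 each lost the call without at least 1 library, with values from -0.75 to -0.59, from -1.38 to -1.15, from -1.58 to -1.47, from 1.14 to 1.27 and of 1.04 there. TGFB2 stood at 0.25 when at least 4 UMIs of LAMP5 and NDNF were required. The count fell to 3 without the second 18-month library and to 9 without the third, and rose to 27 without the second 17-month library. DESeq2 called 1 gene, and 598 genes had an unadjusted p under 0.05 in edgeR's test.

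Whether the gap between the LAMP5 and NDNF nuclei and the other inhibitory nuclei differed between the animals was tested with an interaction term, and CNTNAP5 was the 1 gene called of 10869 (0.0092%, adjusted p under 0.05; 603 genes had an unadjusted p under 0.05). In the other inhibitory nuclei it was at 622 and 706 CPM at 17 months and at 704, 687 and 726 CPM at 18 months. The LAMP5 and NDNF nuclei were thus above the others in both 17-month libraries and below them in all 3 18-month libraries. The difference of the gaps was -1.18 on the log2 scale (SE 0.14, adjusted p = 1.25e-06, edgeR's quasi-likelihood test). The count of genes was 3 and 4 without the first and the second 17-month library, 10 without the first 18-month library, 1 without the second and 10 without the third.

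The makeup of the LAMP5 and NDNF nuclei differed between libraries, so CNTNAP5 was also read within subsets. In nuclei without an LHX6 UMI it was at 1130 and 1336 CPM in the 17-month animal and at 564, 535 and 562 CPM in the 18-month animal. In nuclei with an LHX6 UMI it was at 232 and 421 CPM against 325, 394 and 316 CPM, and the animals overlapped. These 17-month values rest on 16 and 45 UMIs of CNTNAP5 in 7 and 11 nuclei. With NDNF it was at 1253 and 1506 CPM against 756, 599 and 471 CPM, and without NDNF at 868 and 889 CPM against 365, 452 and 485 CPM, neither of which overlapped. In the VIP-gated nuclei (929 and 1454 against 1295, 923 and 762 CPM) and the CNR1-gated nuclei (906 and 921 against 1029, 709 and 630 CPM) the animals overlapped, as they did in the SST or PVALB-gated nuclei (299 and 239 against 336, 342 and 261 CPM). In the 830 other inhibitory nuclei with at least 5 UMIs of ADARB2 they did not overlap and went the same way as in the LAMP5 and NDNF nuclei, at 797 and 969 CPM against 754, 724 and 708 CPM. Whether the gap differed from that in each of these narrower sets was not tested.

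**Figure D5:**
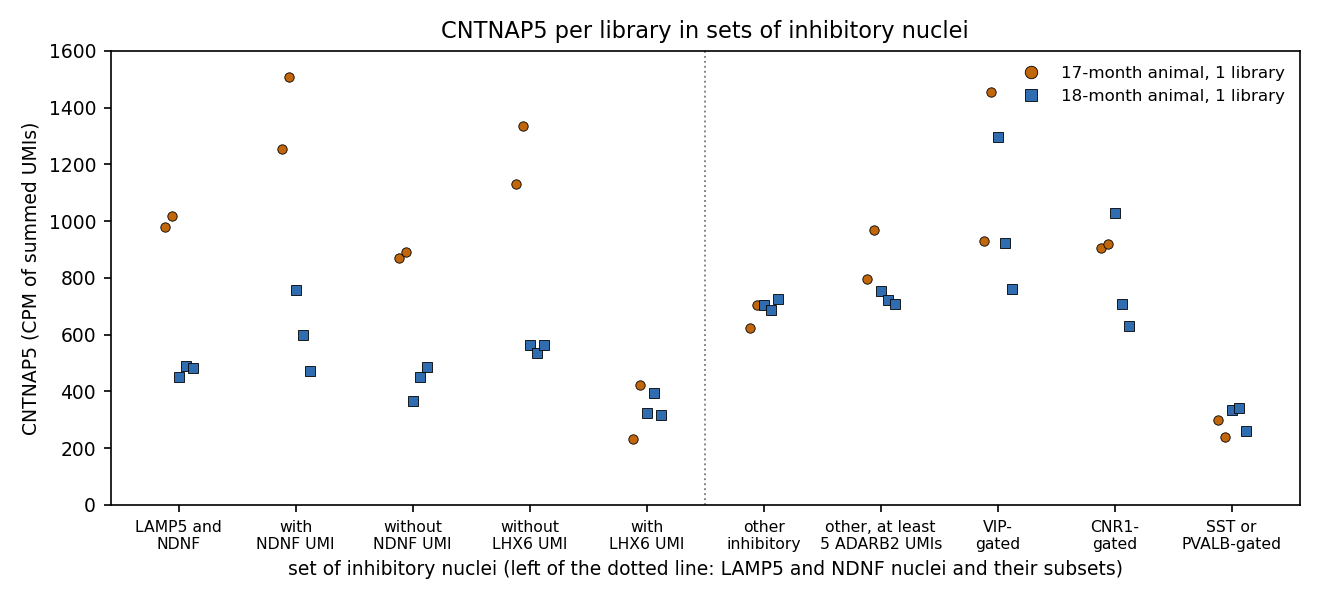
CNTNAP5 in CPM of summed UMIs, from 0, in each library for 10 sets of inhibitory nuclei; circles are the libraries of the 17-month animal and squares those of the 18-month animal. The animals stand apart in the LAMP5 and NDNF nuclei, in 3 of their 4 subsets and, by less, in the other inhibitory nuclei with at least 5 UMIs of ADARB2. They overlap in the LAMP5 and NDNF nuclei with an LHX6 UMI, where the 17-month points rest on 7 and 11 nuclei.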

How the data were processed

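Nuclei were sequenced from frozen claustrum in 5 libraries. The authors deposited raw UMI counts per gene and barcode; the file headers name Cell Ranger 5.0.1, and the submitters' processing notes also name CASAVA 1.8, Seurat and the builds Mmul_10 and mm10, without roles. Of 21761 gene identifiers, 16548 had symbols in the files and 645 in an identifier table. Counts of each set were summed per library and tested with edgeR 4.0.16 (R 4.3.3; quasi-likelihood, TMM, library as a block where both sets come from the same libraries), with DESeq2 1.42.0 as an alternative. The 11 gate genes were left out of the fits. The barcodes with the highest Scrublet scores (scanpy 1.11.5), 0.8% per 1000 barcodes in a library, were taken as likely doublets and kept, and left out in an alternative. The fits were tested on simulated data. The members and the 27 gene lists were chosen with earlier results of these data known. Named genes were the 15 highest and 10 lowest called genes against the other inhibitory nuclei at 20 CPM or more with the same direction in each library, the 8 and 8 against VIP-gated nuclei and 5 and 5 elsewhere, up to 4 called genes per list, and the neurogliaform genes and cell markers whatever their values. A division into nuclei with LAMP5 only and NDNF only, one at 2 LHX6 UMIs and a CCK-gated reference of 4 nuclei could not be fitted; the divisions at 1 UMI of NDNF and of LHX6 and the CNR1-gated reference were chosen after seeing the data. Sequences were not used here. A result on a withheld item is not reported here.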

Additional observations from a re-analysis of the deposited data

Results flagged for a closer look

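CNTNAP5 differed between the animals in the LAMP5 and NDNF nuclei beyond its difference in all other inhibitory nuclei together. The interaction term was -1.18 on the log2 scale (SE 0.14), from 977 and 1016 CPM in the 17-month libraries to 452, 490 and 481 CPM in the 18-month libraries. In the other inhibitory nuclei with at least 5 UMIs of ADARB2 it was also lower in each library of the 18-month animal, at 754, 724 and 708 CPM against 797 and 969 CPM, and the gap to that set was not tested. Each age is 1 animal, and the share of nuclei with RELN also differed between the animals; its part in the difference was not tested.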

How the results depend on the processing

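Thinning each nucleus to 3000 UMIs left fewer genes to test. Against the other inhibitory nuclei it gave 474 calls of 7460 genes tested in place of 763 of 10869. Against the VIP-gated it gave 301 of 1796 in place of 510 of 4881. For the SST or PVALB-gated, 445 of 3212 were called in place of 815 of 7311. For the CNR1-gated, 262 of 1995 were called in place of 556 of 6080. The NDNF division gave 47 of 1062 in place of 101 of 4040. The LHX6 division gave 62 of 1208 in place of 141 of 4336. Between animals, 9 of 3396 were called in place of 14 of 6629. The interaction gave 3 of 7460 in place of 1 of 10869. With no filter on low counts, calls were 831 for the VIP-gated, 1235 for the SST or PVALB-gated and 876 for the CNR1-gated reference. They were 155 for NDNF, 66 between animals and 16 for the interaction. The share of calls that were higher then moved from 44.7% to 31.3% for LHX6. Against only the other inhibitory nuclei with at least 5 UMIs of ADARB2, 426 of 9214 genes were called, 143 higher and 283 lower. Between animals DESeq2 called 1 gene and TGFB2 reversed to 0.25 at 4 UMIs of LAMP5 and NDNF; the interaction gave 3 genes there and 2 without likely doublets; the cause was not tested. The share of inhibitory nuclei was 3.49% at 4 UMIs and 2.44% when the gate for LAMP5 and NDNF nuclei was applied again to the thinned counts; the thinned fits kept the nuclei chosen on full counts. Leaving out a library gave 692 to 791, 506 to 556, 757 to 861, 534 to 592, 75 to 109 and 134 to 174 calls in the order above, 3 to 27 between animals, 1 to 10 for the interaction and a share of 9.76% to 11.0%. The titles number libraries alike in both animals without stating a pairing; a replicate block on those numbers gave 73 calls between animals. Without the library block the counts were 734, 496, 809, 553, 84 and 125. At 4 UMIs the LHX6 division could not be fitted. Depth limits genes under about 20 CPM in the 31 to 71 nuclei of a library.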
